A study of Mus musculus with 6 samples.

Results

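The 10 genes examined here carry the synthesis of fatty acids and the insertion of double bonds into them: Acly, Acaca, Fasn, Elovl5, Elovl6, Scd1, Scd2, Fads1, Fads2 and the transcription factor gene Srebf1. They were taken by gene name from a table of 21686 genes, and all 10 were in it. Among them, Scd2 was chosen by measured values, in part for its higher count with dexamethasone than in control. Its values are therefore given as a description without a test in any comparison, since each comparison shares libraries with that contrast. Counts of genes that passed a test are over the 9 others. These 9 genes and the lists of other genes were also chosen with earlier results of these data known. A share of all genes set beside their counts does not correct for that choice.

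The cells were MC3T3-E1 Subclone 14, a clonal osteoblast precursor line derived from mouse calvaria, so every library came from 1 clone. The control group received 100 µL of PBS, and the dexamethasone group received 10 µM of this synthetic glucocorticoid. The third group, dexamethasone + EPC-EVs, received 10 µM dexamethasone together with 100 µg of extracellular vesicles from endothelial progenitor cells of mouse bone marrow. All cells were treated for 72 hours according to the sample labels, and each group had 2 libraries of bulk RNA. The series' design text differs, naming fibroblasts and a shorter treatment, and the sample labels were followed. There was no group given EPC-EVs without dexamethasone, so a difference seen with EPC-EVs was measured in dexamethasone-treated cells only.

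Fatty acids are built in the cytosol from acetyl-CoA. ATP citrate lyase (Acly) releases acetyl-CoA from citrate, acetyl-CoA carboxylase (Acaca) turns it into malonyl-CoA, and fatty acid synthase (Fasn) joins these units into palmitate. Elovl enzymes lengthen the chain, stearoyl-CoA desaturases make monounsaturated fatty acids, and Fads enzymes desaturate polyunsaturated precursors. SREBP transcription factors, released from the endoplasmic reticulum when sterols are low, are well-known activators of this set.

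The libraries held 5146760 to 6583735 counts in the control and dexamethasone groups, and 12864009 and 13182014 with EPC-EVs. Mitochondrially encoded genes took 5.55% to 8.62% of counts in the first 4 libraries but 0.465% and 0.727% with EPC-EVs. In the EPC-EVs libraries the gene with the most counts was Gm26917, at 5.88% and 6.69% of each library. In CPM (read counts scaled to a common library total after normalisation), it was at 6044 and 2579 in control and 10894 and 7629 with dexamethasone. With EPC-EVs it was at 59897 and 69266 CPM. The osteoblast collagen gene Col1a1 and the osteoblast regulator Runx2 were abundant in all 6 libraries, at 2205 to 8770 and 152 to 202 CPM. Among other osteoblast markers, Spp1 was at 4405 to 11314 CPM, Dmp1 at 26.1 to 348 CPM and Sp7 at 1.19 to 20.6 CPM. Alpl, Bglap, Bglap2, Ibsp and Pth1r were at most 6.57 CPM in any library. Of 5 tested genes known to respond to dexamethasone, 0 passed the test in dexamethasone against control, where 0.0544% of all tested genes passed. Their median log2 fold change was −0.09, from −0.44 for Dusp1 to 0.27 for Fkbp5. Dusp1 was at 65.9 and 73.8 CPM with dexamethasone and at 95.3 and 93.8 in control. With EPC-EVs against dexamethasone, 3 of these 5 rose (Fkbp5, Tsc22d3 and Dusp1), beside 20.9% of all tested genes.

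Promoter sequence is shown for the 2 genes that differed most between EPC-EVs and dexamethasone, Fasn and Acly, and for Elovl5, which did not pass the test there. Each line holds the 250 bases before the RefSeq start on GRCm38.p6, read 5′ to 3′ on the strand of the gene. Capitals mark matches, on either strand, to CCAAT (the NF-Y box), GGGCGG (the GC box) or CACGTG (an E-box).
Fasn, chr11:120824548-120824797, minus strand: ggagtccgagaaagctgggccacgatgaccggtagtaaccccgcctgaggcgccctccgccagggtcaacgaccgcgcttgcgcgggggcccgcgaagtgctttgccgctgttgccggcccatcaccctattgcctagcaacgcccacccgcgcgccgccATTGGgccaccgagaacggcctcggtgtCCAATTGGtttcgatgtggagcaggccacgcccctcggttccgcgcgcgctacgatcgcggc
Acly, chr11:100528001-100528250, minus strand: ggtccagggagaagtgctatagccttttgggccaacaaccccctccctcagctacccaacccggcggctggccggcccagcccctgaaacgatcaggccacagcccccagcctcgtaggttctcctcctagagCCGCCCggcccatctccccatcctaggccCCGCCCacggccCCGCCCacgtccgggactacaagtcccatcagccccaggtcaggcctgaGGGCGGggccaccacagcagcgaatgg
Elovl5, chr9:77917115-77917364, plus strand: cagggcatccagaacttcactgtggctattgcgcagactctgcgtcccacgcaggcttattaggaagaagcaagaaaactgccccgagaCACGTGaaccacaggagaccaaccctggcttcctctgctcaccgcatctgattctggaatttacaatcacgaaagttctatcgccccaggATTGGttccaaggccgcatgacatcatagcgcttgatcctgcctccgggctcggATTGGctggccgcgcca
The Fasn window held 3 CCAAT matches, of which 2 on opposite strands overlap, and the Acly window held 4 GGGCGG matches. The Elovl5 window held 2 CCAAT matches and 1 CACGTG match. The sterol regulatory element TCACNCCAC was not matched in these 3 windows. Among 32851 windows of the same length, 33.8% held CCAAT, 32.7% GGGCGG, 6.02% CACGTG and 1.05% TCACNCCAC. A match or its absence describes only these letters in these windows. The promoter table held 7 of the 10 genes, and it had no entry for Scd1, Scd2 or Fads1.

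The share of all counts taken by the 9 genes other than Scd2 differed between the groups. It was 0.101% (95% Wilson interval 0.0982% to 0.103%) and 0.0843% (0.0819% to 0.0869%) in the control libraries. The share was 0.179% (0.176% to 0.182%) and 0.147% (0.144% to 0.150%) with dexamethasone, and 0.445% (0.441% to 0.449%) and 0.444% (0.440% to 0.447%) with EPC-EVs. These intervals cover counting error only. Both dexamethasone libraries lay above both controls, and both EPC-EVs libraries lay above every other library. With Scd2 included, as a description, the shares were 0.142% and 0.111%, then 0.286% and 0.232%, then 0.769% and 0.762%. Because the RNA came from bulk cultures, more cells of a type and more RNA per cell cannot be told apart.

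With EPC-EVs added to dexamethasone, 8 of the 9 tested genes rose and 0 fell. Among all 13556 tested genes 20.9% rose and 18.9% fell, 39.8% in all. The test was edgeR's quasi-likelihood test at an adjusted p under 0.05. The gene that did not pass was Elovl5. Both EPC-EVs libraries lay above both dexamethasone libraries for the same 8 genes, as they did for 38.5% of all genes. At an unadjusted p under 0.05 with a log2 fold change over 1.5, the rule of the study, 3 of 9 were higher (Acly, Fads2 and Fasn), against 7.05% of all genes. The median log2 fold change of the 9 genes was 1.30, beside 0.01 over all genes tested. With DESeq2, 8 of 9 were also higher, as were 17.1% of its tested genes. When mitochondrially encoded genes were left out of every library, 8 of 9 were again higher.

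With dexamethasone against control, 0 of the 9 genes passed, and 0.0544% of 12879 tested genes did. At an unadjusted p under 0.05, 5 of 9 were higher (Acaca, Acly, Fads1, Fasn and Scd1), against 5.61% of all genes. DESeq2 passed 4 of the 8 it tested (Acly, Fads1, Fasn and Scd1), against 0.853% of its tested genes. Both dexamethasone libraries lay above both control libraries for 8 of 9 genes, all but Elovl6, and this held for 22.8% of all genes. The median log2 fold change of the 9 was 0.76, beside 0.01 over all genes. The size of a difference depended on single libraries. The log2 fold change of Fasn was 1.67 without control replicate 1 and 0.90 without control replicate 2. That of Srebf1 was 0.12 without dexamethasone replicate 1 and 1.30 without dexamethasone replicate 2.

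Against control, cells given both agents showed 8 of 9 genes higher at adjusted p under 0.05, again without Elovl5, and 19.1% of 13511 tested genes were higher (36.4% changed in either direction). The libraries of these groups did not overlap for the same 8 genes, all higher with both agents, and for 39.1% of all genes. The median log2 fold change was 1.88 for the 9 genes and 0.02 for all genes. All 3 comparisons share libraries, so their values stand side by side and are not independent. The order control below dexamethasone below dexamethasone + EPC-EVs held in every library for 7 of the 9 genes, all but Elovl5 and Elovl6, and for 12.5% of 12655 genes.

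**Figure D1:**
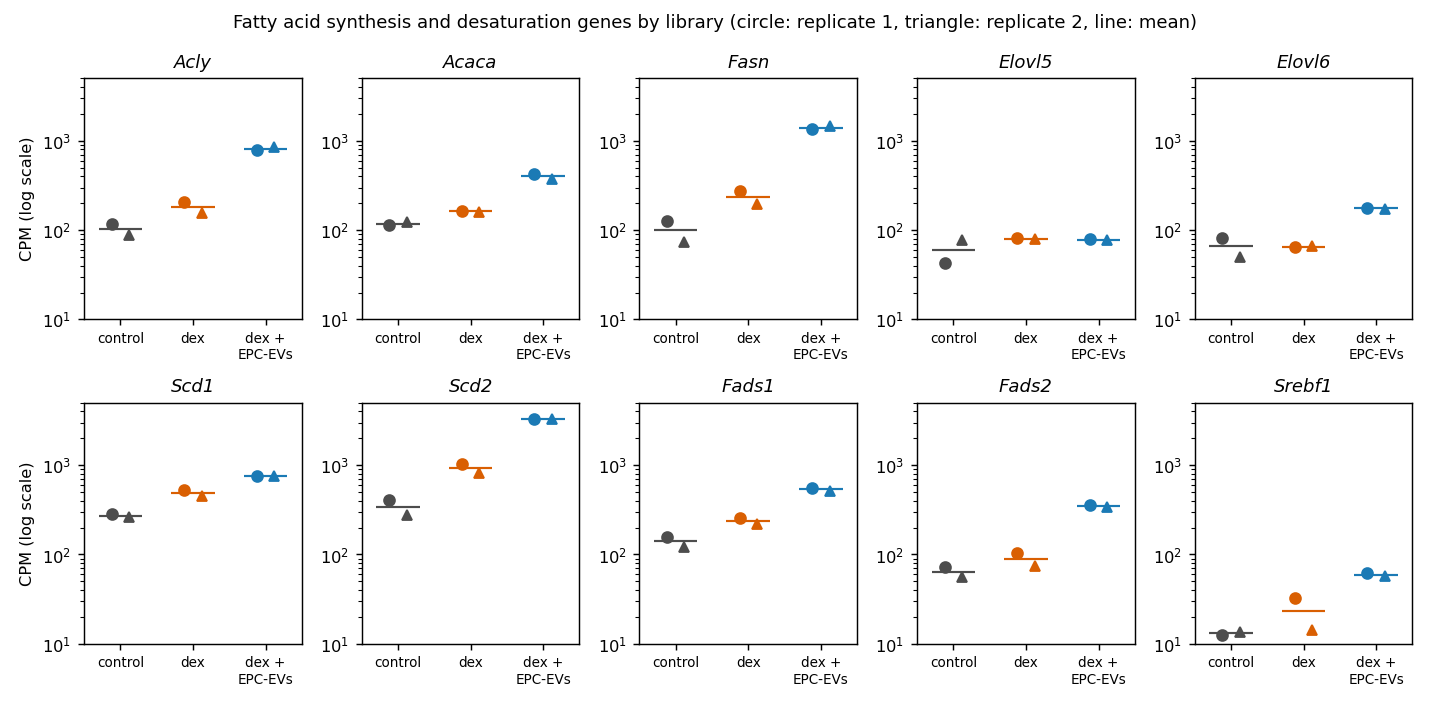
CPM of each gene (vertical axis, log scale) in the 6 libraries, by group (horizontal axis). Circles are replicate 1, triangles replicate 2 and lines group means. Fasn moved from 74.0 and 126 CPM in the control libraries to 1341 and 1448 with EPC-EVs, whereas Elovl5 was at 43.3 and 77.2 CPM in control and at 79.9 and 76.5 with EPC-EVs.

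Of the carbon supply and synthesis genes, Fasn and Acly had the largest differences of the 10 genes between EPC-EVs and dexamethasone. Acly, on chromosome 11 (100476353 to 100528000, minus strand, GRCm38), was counted at 117 and 88.0 CPM in control, 208 and 156 with dexamethasone, and 788 and 846 with EPC-EVs. The 3 groups did not overlap. Acly rose with EPC-EVs against dexamethasone, at a log2 fold change of 2.12 (SE 0.15, edgeR adjusted p = 2.28e-06), a 4.34-fold difference. Dexamethasone against control gave 0.82 (SE 0.21, edgeR adjusted p = 0.279).

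Fasn (chromosome 11, 120805846 to 120824547, minus strand) had the largest fold of the 10 genes in both comparisons with EPC-EVs. It stood at 126 and 74.0 CPM in control, 274 and 197 with dexamethasone, and 1341 and 1448 with EPC-EVs. The lowest EPC-EVs library was far above the highest dexamethasone library. The log2 fold change was 2.52 (SE 0.16, edgeR adjusted p = 9.81e-07) against dexamethasone and 3.75 (SE 0.27, edgeR adjusted p = 0.000144) against control, which is 13.4-fold. Dexamethasone against control was 1.22 (95% interval 0.67 to 1.78, edgeR adjusted p = 0.216).

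Acaca (chromosome 11, 84129672 to 84401651, plus strand) differed less than its neighbours in the pathway. It was at 114 and 123 CPM in control, 165 and 159.7 with dexamethasone, and 427 and 374 with EPC-EVs. EPC-EVs against dexamethasone gave 1.26 on the log2 scale (SE 0.13, edgeR adjusted p = 2.56e-05). Of the 100-base windows of its transcripts, 42.83% also occur in the pseudogene Gm5182, so how its reads were assigned is uncertain. Gm5182 itself held at most 10 counts in a library.

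Within a library, the FPKM of Fasn relative to Acaca was 1.74 and 0.942 in control, 2.60 and 1.92 with dexamethasone, and 4.90 and 6.03 with EPC-EVs. The ratio to Acly was 0.520 and 0.406, then 0.634 and 0.606, then 0.821 and 0.825. Both ratios were higher in the EPC-EVs libraries than in every other library, without a test of the ratio. FPKM divides a count by the library total and by the gene length that the authors used. For Acaca that length was 17074 bases, whereas its longest GENCODE vM21 transcript has 9513. With the longest transcript of each gene, the control mean FPKM was 9.90 for Fasn and 12.3 for Acaca. The size of a ratio thus depends on the lengths, while its change between groups does not.

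The elongases behaved differently from each other. Elovl6 (chromosome 3, 129532355 to 129638495, plus strand), which lengthens saturated chains made by fatty acid synthase, was at 81.8 and 49.8 CPM in control, 64.8 and 65.7 with dexamethasone, and 178 and 174 with EPC-EVs. The control libraries enclosed the dexamethasone libraries, while both EPC-EVs libraries were above all others. The rise with EPC-EVs against dexamethasone was 1.39 (SE 0.14, edgeR adjusted p = 2.42e-05). For dexamethasone against control it was −0.02 (SE 0.25, 95% interval −0.57 to 0.53), a sign that turned under 4 alternatives, to 0.39 without control replicate 1.

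Elovl5 (chromosome 9, 77917364 to 77984519, plus strand), which lengthens polyunsaturated chains, did not pass in any of the 3 comparisons. It was at 43.3 and 77.2 CPM in control, 80.8 and 79.2 with dexamethasone, and 79.9 and 76.5 with EPC-EVs. The lower control library stood apart from the other 5. The log2 fold change with EPC-EVs against dexamethasone was −0.08 with a 95% interval of −0.42 to 0.26 (edgeR adjusted p = 0.717). With the trend on length and GC content removed it was 0.16. Against control, EPC-EVs gave 0.33 (95% interval −0.32 to 0.98) and dexamethasone gave 0.40 (95% interval −0.18 to 0.99). Without control replicate 2 these were 0.82 and 0.89, in fits where the lone control library has no spread of its own. Without control replicate 1, dexamethasone gave 0.05.

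The ratio of Elovl6 to Elovl5 in FPKM was 1.03 and 0.353 in the control libraries, 0.439 and 0.454 with dexamethasone, and 1.22 and 1.24 with EPC-EVs. The control libraries spanned the dexamethasone values.

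The stearoyl-CoA desaturases lie near each other on chromosome 19, Scd1 at 44394455 to 44407879 on the minus strand and Scd2 at 44293674 to 44306864 on the plus strand. Scd2 was counted at 411 and 277 CPM in control, 1023 and 828 with dexamethasone, and 3299 and 3294 with EPC-EVs. The groups did not overlap. Its log2 difference was 1.42 for dexamethasone against control, 1.79 for EPC-EVs against dexamethasone and 3.21 for EPC-EVs against control. These Scd2 values are a description.

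By FPKM, Scd2 ranked 357 and 635 among all genes in the control libraries, 124 and 160 with dexamethasone, and 25 and 26 with EPC-EVs. It made up 29.0% and 24.3% of the counts of the 10 genes in control, 37.4% and 36.8% with dexamethasone, and 42.1% and 41.8% with EPC-EVs.

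Scd1, the main isoform of liver and fat tissue, was at 281 and 260.2 CPM in control, 529.8 and 453 with dexamethasone, and 750.3 and 758 with EPC-EVs. The groups did not overlap. Scd1 rose by 0.57 on the log2 scale with EPC-EVs against dexamethasone (SE 0.12, edgeR adjusted p = 0.00299). Without dexamethasone replicate 2 the rise was smaller, at 0.46, in a fit where the lone dexamethasone library has no spread of its own. Against control, EPC-EVs gave 1.43 (SE 0.17, edgeR adjusted p = 0.000675), and dexamethasone gave 0.85 (SE 0.15, edgeR adjusted p = 0.101).

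Scd1 was thus the tested gene with the smallest passing difference between EPC-EVs and dexamethasone. The FPKM ratio of Scd2 to Scd1 was 1.30 and 0.944 in control, 1.71 and 1.62 with dexamethasone, and 3.90 and 3.85 with EPC-EVs. In 1 of the 2 control libraries Scd1 was the higher of the pair. Of the 100-base windows of Scd1 transcripts, 2.66% also occur in another gene, Scd2, Scd3 and Scd4 included, and 0.90% of those of Scd2 do. The family members Scd3 and Scd4 held at most 7 and 268 counts in a library.

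**Figure D2:**
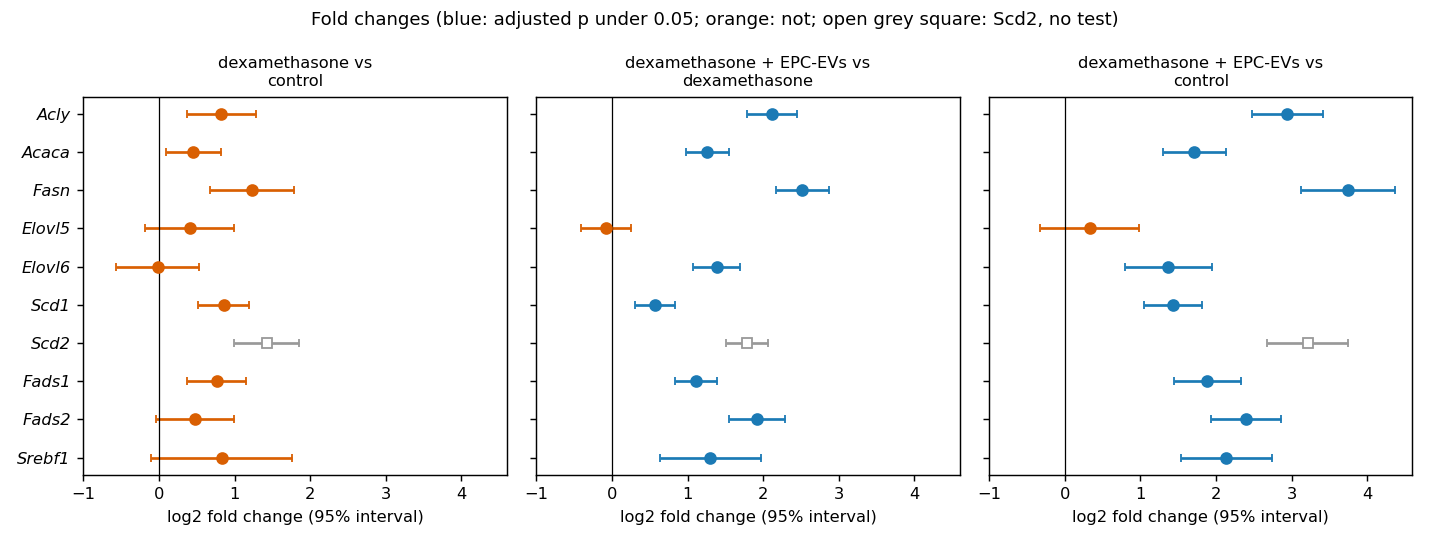
Log2 fold change with its 95% interval (horizontal axis) for each gene in the 3 comparisons. Blue points passed at adjusted p under 0.05, orange points did not, and the open grey square is Scd2, which was not tested. The interval drawn for Scd2 does not allow for its choice by measured values and is not to be read as a test. With EPC-EVs against dexamethasone the points range from −0.08 for Elovl5 to 2.52 for Fasn.

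Fads1 and Fads2 are the front-end desaturases of polyunsaturated fatty acids, Fads2 acting before Fads1 in the pathway. They lie on chromosome 19, Fads1 at 10182888 to 10196877 on the plus strand and Fads2 at 10062765 to 10101746 on the minus strand. Fads1 was at 157 and 123 CPM in control, 256 and 222 with dexamethasone, and 552 and 517 with EPC-EVs. Its log2 fold change was 1.12 (SE 0.13, edgeR adjusted p = 5.1e-05) for EPC-EVs against dexamethasone and 0.76 (SE 0.18, edgeR adjusted p = 0.256) for dexamethasone against control.

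Fads2 was at 71.7 and 56.1 CPM in control, 105 and 73.8 with dexamethasone, and 356 and 341 with EPC-EVs. The 2 dexamethasone libraries differed by more than the lower of them differed from the higher control. Fads2 rose by 1.92 with EPC-EVs against dexamethasone (SE 0.17, edgeR adjusted p = 8.92e-06). Dexamethasone against control gave 0.47 (95% interval −0.04 to 0.99).

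The FPKM ratio of Fads2 to Fads1 was 1.04 and 1.05 in control, 0.937 and 0.762 with dexamethasone, and 1.48 and 1.51 with EPC-EVs. It was lower in both dexamethasone libraries than in both controls and higher in both EPC-EVs libraries than in any other. The ratio was not tested. Its size rests on the length of 1508 bases behind the FPKM of Fads2, and in counts it was 0.456 and 0.458 in control.

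**Figure D3:**
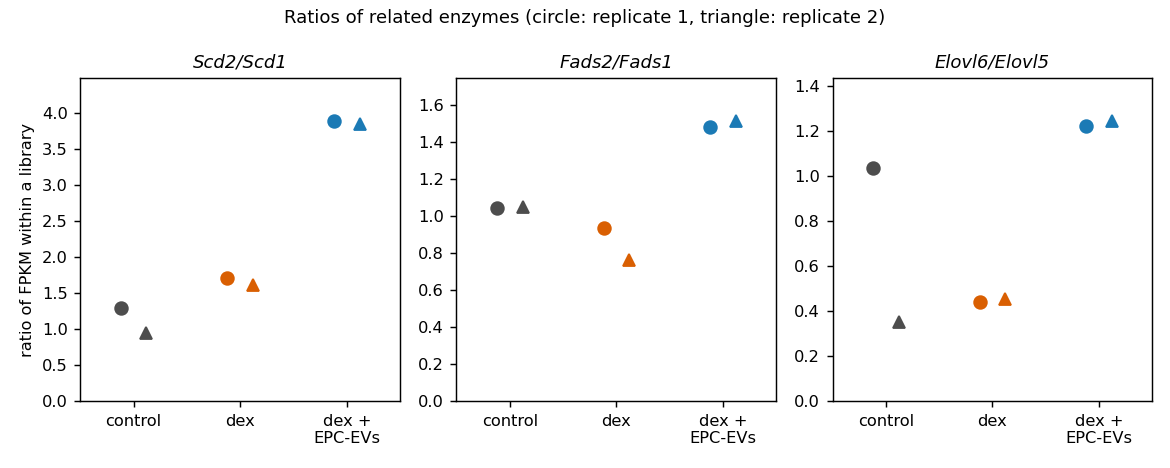
Ratio of the FPKM of related enzymes within each library (vertical axis, from 0) by group. Scd2 to Scd1 was 3.90 and 3.85 with EPC-EVs, above the 0.944 to 1.71 of the other 4 libraries, while the Elovl6 to Elovl5 ratio of 1 control library lay well above the other control library.

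Srebf1 (chromosome 11, 60199089 to 60222581, minus strand) encodes the SREBP form that favours fatty acid genes. It had the lowest level of the 10, at 12.5 and 13.5 CPM in control, 32.2 and 14.3 with dexamethasone, and 61.3 and 57.1 with EPC-EVs. The dexamethasone libraries differed more from each other than the lower one did from control. EPC-EVs against dexamethasone gave 1.30 (SE 0.31, edgeR adjusted p = 0.00551). This was 2.02 without dexamethasone replicate 1 and 0.83 without dexamethasone replicate 2, and with the trend on length and GC content removed it was 0.60 with an edgeR adjusted p of 0.143. Gene counts do not separate its isoforms, and 1.93% of its exonic bases are shared with Rai1 on the other strand.

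Between genes, levels were compared per length. In control, Scd2 and Scd1 had the highest mean FPKM, at 62.5 and 55.4, and their ranges overlapped. Fads2 and Fads1 followed at 42.0 and 40.1, also overlapping, and Acly, Elovl5, Elovl6, Fasn and Acaca lay from 19.3 down to 6.84 with each neighbour overlapping. Srebf1 was lowest at 2.29.

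With EPC-EVs the order of mean FPKM was Scd2 (588.8), Fads2 (225), Scd1 (152), Fads1 (151), Acly (151), Fasn (124), Elovl6 (26.7), Acaca (22.9), Elovl5 (21.6) and Srebf1 (10.2). Scd1, Fads1 and Acly overlapped, as did Acaca and Elovl5, and the other neighbours were separate. The place of Fads2 rests on the length of 1508 bases behind the deposited FPKM. With the longest GENCODE vM21 transcript of each gene instead, of 3150 bases for Fads2, it moved from position 2 to position 6 and Acly from position 5 to position 2. In control, Fads2 moved in the same way from position 3 to position 6, at a mean of 20.1.

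The other genes of the pathway were read from lists of 13, 18, 14 and 16 genes. In dexamethasone against control, 0 of the 52 tested genes of these lists passed edgeR's test. At an unadjusted p under 0.05 10 of 52 did, beside 10.9% of all genes tested, and DESeq2 passed 2, beside 2.7% of the genes it tested. With EPC-EVs against dexamethasone, 20.9% of all tested genes rose and 18.9% fell. In the list of substrate, NADPH supply and cofactor genes 5 of 11 rose and 0 fell, with a median difference of 0.76 on the log2 scale. Of its NADPH genes, Pgd rose by 0.48 and Idh1 by 1.38 (edgeR adjusted p = 0.0214 and 0.0002). G6pdx, at −0.22, and Me1, at 0.36, did not pass (edgeR adjusted p = 0.232 and 0.167). Acss2, which makes acetyl-CoA from acetate, was at 11.6 and 11.7 CPM in control, 15.4 and 11.3 with dexamethasone, and 96.5 and 90.7 with EPC-EVs. It rose by 2.76 against dexamethasone (edgeR adjusted p = 4.56e-06). Aacs, which activates acetoacetate for lipid synthesis, rose by 2.29 (edgeR adjusted p = 4.94e-06). Slc25a1, the mitochondrial citrate carrier, rose by 1.78 (edgeR adjusted p = 1.84e-05).

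Among the elongation cycle enzymes, other desaturases and electron carriers, 4 of 13 tested genes rose and 1 fell, the cytochrome b5 reductase gene Cyb5r3, a share near the 39.8% of all tested genes that changed. The median log2 fold change was 0.27. Fads3, a relative of Fads1 and Fads2, was at 49.5 and 29.5 CPM in control, 48.3 and 43.3 with dexamethasone, and 124 and 148 with EPC-EVs, and it rose by 1.53 (edgeR adjusted p = 3.65e-05). Elovl1, an elongase of very long saturated chains, rose by 0.99 (edgeR adjusted p = 0.00643). Hsd17b12, the ketoacyl reductase of the cycle, rose by 0.91 (edgeR adjusted p = 0.00153).

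The genes that control the pathway were mixed, with 6 of 13 tested genes rising and 3 falling, beside 20.9% and 18.9% of all tested genes. Their median difference was 0.11 on the log2 scale. Srebf2, which encodes the SREBP form that favours sterol genes, was at 71.3 and 35.2 CPM in control, 181 and 142 with dexamethasone, and 600.02 and 543 with EPC-EVs. It rose by 1.78 against dexamethasone (edgeR adjusted p = 5.8e-06). Per length it was above Srebf1 in every library, by 2.94 to 11.2 times. Insig1, which holds SREBPs in the endoplasmic reticulum, rose by 1.54 (edgeR adjusted p = 0.000107). Of the other SREBP genes of this list, Scap rose by 0.70 (edgeR adjusted p = 0.00609). Mbtps2 fell by 1.41 (edgeR adjusted p = 0.000302), to a mean of 21.5 CPM from 55.4 with dexamethasone. Insig2, at −0.14, and Mbtps1, at 0.10, did not pass. Prkaa2, a catalytic subunit gene of AMPK, the kinase that inhibits acetyl-CoA carboxylase, fell by 1.59 (edgeR adjusted p = 0.00121). The AMPK genes were mixed. Prkaa1 fell by 0.70 (edgeR adjusted p = 0.00329), Prkag1 rose by 1.48 (edgeR adjusted p = 0.000399) and Prkab1, at −0.51, did not pass. Mean levels with EPC-EVs were 8.55 CPM for Prkaa2 and 68.8 CPM for Prkaa1.

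**Figure D4:**
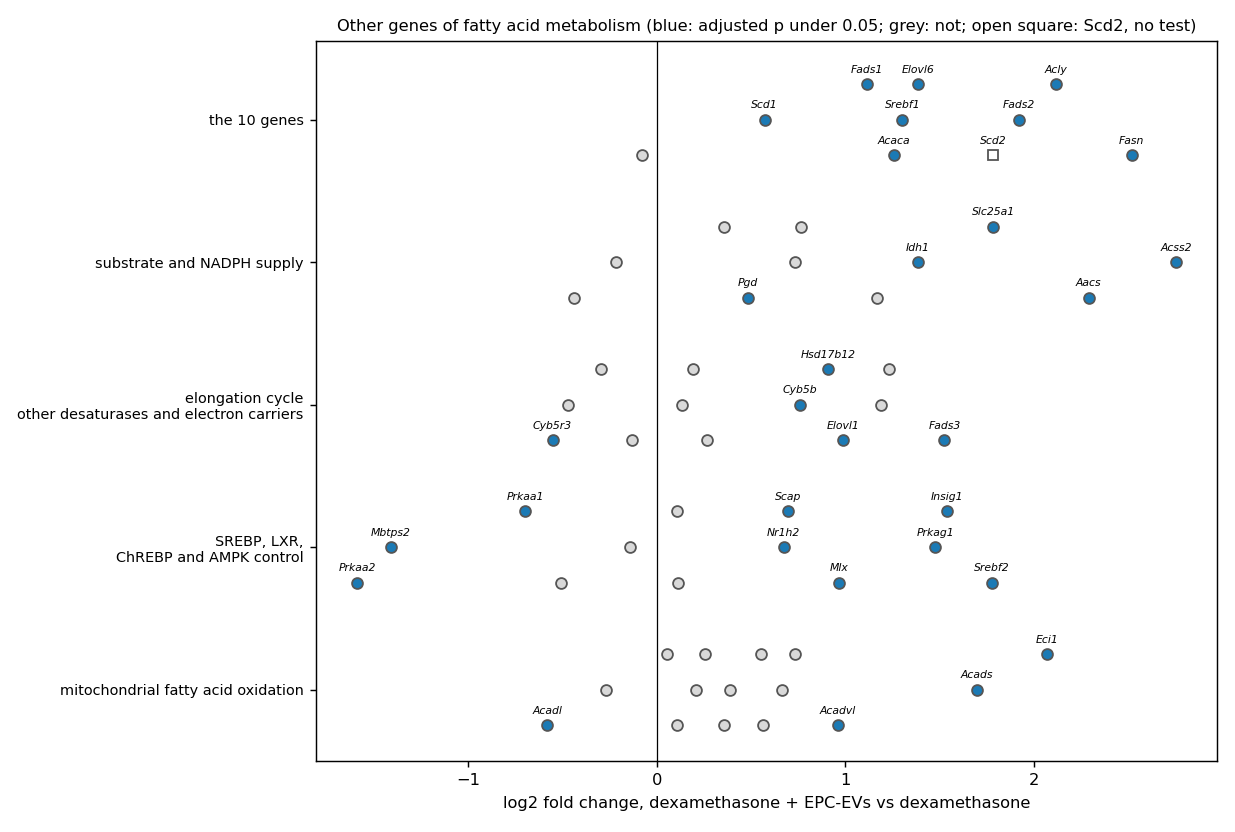
Log2 fold change (horizontal axis) of EPC-EVs against dexamethasone for the 10 genes and the tested genes of 4 lists, 1 point a gene. Blue points passed at adjusted p under 0.05, grey points did not, and the open square is Scd2. The supply list reaches 2.76 at Acss2, and the list of genes that control the pathway reaches −1.59 at Prkaa2.

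Other properties of the libraries moved with the EPC-EVs group. Depth, mitochondrial share and the level of Gm26917 are given above. The summed level of the 6 haematopoietic and macrophage markers in the table was 20.8 to 27.2 CPM in the control and dexamethasone libraries. With EPC-EVs it was 44.4 and 88.8 CPM. Cd14 was the 1 of 5 tested markers of this list that rose with EPC-EVs against dexamethasone, from 3.06 and 7.21 to 24.2 and 33.4 CPM (log2 fold change 2.44, edgeR adjusted p = 0.000537). Csf1r was at 4.44 and 37.0 CPM with EPC-EVs, and Adgre1 was at 0 in both EPC-EVs libraries and at most 1 count in the other libraries. The part of these markers in the result was not tested. Of the adipocyte markers, 6 of 10 were in the table, and they summed to 3.18 to 11.6 CPM in the first 4 libraries and to 5.46 and 3.53 with EPC-EVs. Of the 2 that were tested, Cebpa rose against dexamethasone, from 5 and 0 counts to 59 and 43 (edgeR adjusted p = 0.0277), and Fabp4 fell, from 65 and 15 counts to 9 and 2 (edgeR adjusted p = 0.0107). Adipoq, Plin1 and Pparg were at 0 counts in both EPC-EVs libraries, where a count of 0 allows up to 3 counts, a level of 0.238 CPM in the first library and 0.235 in the second. Adipoq and Plin1 were at 0 or 1 count in the other libraries too. The 5 endothelial markers in the table summed to 1.58 to 5.38 CPM over all 6 libraries. Among 9 tested osteoblast markers, Col1a1 and Col1a2 rose with EPC-EVs against dexamethasone, by 1.51 and 1.89 on the log2 scale (edgeR adjusted p = 1.16e-05 and 1.42e-06). Spp1 fell by 1.06 (edgeR adjusted p = 0.000155) and Phex fell by 1.92 (edgeR adjusted p = 0.00297). The part of the adipocyte and osteoblast markers in the result was not tested either.

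Across 13 settings of the analysis the sign of EPC-EVs against dexamethasone was the same for each gene except Elovl5. The range was 1.95 to 2.80 for Fasn, 1.83 to 2.36 for Acly, 1.47 to 2.21 for Fads2 and 1.64 to 1.96 for Scd2. The lowest value of the first 3 came when a trend on gene length and GC content was removed.

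**Figure D5:**
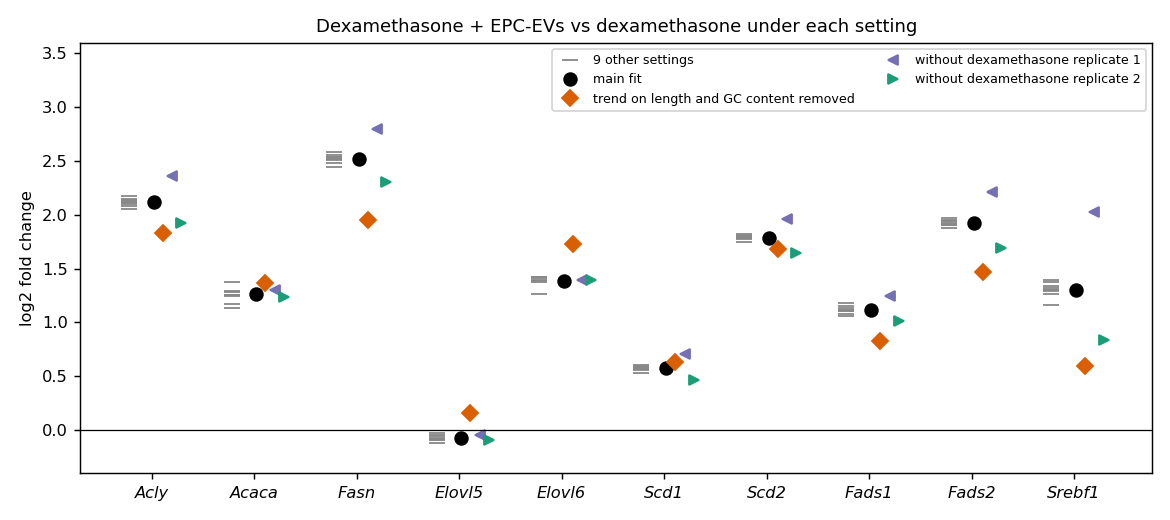
Log2 fold change of EPC-EVs against dexamethasone (vertical axis) for each gene under 13 settings. Black circles are the reported fit, diamonds the fit with the trend on length and GC content removed, triangles the fits without 1 dexamethasone library, and dashes 9 further settings. Srebf1 spread most, from 0.60 to 2.02.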

How the data were processed

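RNA from 6 cultures was sequenced. The authors removed low-quality reads, aligned the rest to GRCm38 with HISAT2 and counted them per gene with HTSeq (version 0.6.1 in the submitters' processing notes, which also name DESeq2 1.26.0). Whether HTSeq used strand is not given in the sources used here. The deposited table held raw counts and, per the file headers, FPKM, which the authors scaled by gene length and by each library's total count. Groups came from the treatment labels, and replicates are 2 biological replicates per group, which differed by more than sampling noise.

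The counts were tested on the whole table with edgeR 4.0.16 (TMM, filterByExpr, robust quasi-likelihood test, R 4.3.3), 2 groups at a time, with Benjamini-Hochberg adjustment over all genes tested and a threshold of 0.05. Levels are CPM on TMM totals, and FPKM where genes are compared. DESeq2 1.42.0, limma 3.58.1 on log2(FPKM + 1), a loess trend (span 0.4) on length and GC content and other alternatives were run. Scripts were tested on simulated data. An exact permutation test of 2 against 2 libraries cannot reach 0.05. All 10 genes were named, with the 3 called genes of largest change (mean of at least 10 CPM) from each list, and the 5 genes closest in profile to Scd2 and Fasn. Further list genes were named outside this rule: NADPH, AMPK and SREBP genes, and the genes Cyb5r3 and Acadl that fell. The members and lists were chosen with earlier results of these data known. Ensembl IDs matched GENCODE vM21 for 21646 of 21686 genes. A deposited transcript table was not used, since the part given here covers chromosome 1 and holds none of the 10 genes.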

Additional observations from a re-analysis of the deposited data

How the results depend on the processing

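For EPC-EVs against dexamethasone and against control, the number of the 9 genes called stayed at 8 or within 1.5 times of it under the alternatives run, except that the study's rule (unadjusted p under 0.05 and log2 fold change beyond 1.5) passed 3 against dexamethasone. That rule also gave 9 other lipid genes against dexamethasone and 17 against control, without a share of all genes beside them. For dexamethasone against control, where edgeR called 0 of 9, the count was 4 with DESeq2, 4 without the filter and 1 with the trend on length and GC content removed, and from 0 to 5 when 1 library was left out. Other lipid genes, 0 at first, became 2 with DESeq2, 2 without the filter, 2 under the study's rule and 1 to 15 with 1 library left out, the 15 without control replicate 1. In the fits with 1 library left out, the group with a lone library borrowed the spread of the other group. The counts from these fits are therefore given as a description only, and no conclusion is drawn from them. The sign of Elovl6 for dexamethasone against control turned to 0.39 without control replicate 1 (−0.32 without control replicate 2), 0.089 with limma and 0.14 with the trend removed, and that of Elovl5 for EPC-EVs against dexamethasone to 0.16 with the trend removed. The cause was not tested.

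The correlations over genes of replicate differences between groups were 0.0605, 0.00932 and 0.0131. Such values cannot show whether libraries with the same replicate number were handled together, since an effect on few genes would leave them low. With the replicate number as a block, dexamethasone against control called 2 of 9 genes (Fasn and Scd1) and 1 other lipid gene. No share of all genes stands beside these block counts. Elovl6 was 0.018 in that fit. Low depth limits Srebf1 most, with 68 counts in a control library.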

Other observations

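The fatty acid oxidation genes of mitochondria, which break down what the 10 genes build, were also examined. With EPC-EVs against dexamethasone, 3 of 15 tested genes rose and 1 fell, Acadl, and the median log2 fold change was 0.39. The share that rose is near the 20.9% of all tested genes that rose. Acadvl, the very-long-chain acyl-CoA dehydrogenase, was at 23.5 and 25.1 CPM in control, 42.4 and 42.7 with dexamethasone, and 83.8 and 87.0 with EPC-EVs. It rose by 0.96 against dexamethasone (edgeR adjusted p = 0.000922). Eci1, an enoyl-CoA isomerase, rose by 2.07 (edgeR adjusted p = 0.00134) and Acads, the short-chain dehydrogenase, by 1.70 (edgeR adjusted p = 0.0062). In dexamethasone against control, 0 of 15 were called by edgeR.

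The genes closest to Scd2 in profile over the 6 libraries were Tnk2, Calhm2, Arf5, Gba2 and Hspb8, with a root mean square difference in centred log2 CPM of 0.13 for Tnk2 to 0.17 for Hspb8. Tnk2, a tyrosine kinase gene, was at 17.8 and 13.3 CPM in control, 45.4 and 32.7 with dexamethasone, and 124 and 149.9 with EPC-EVs.

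The genes closest to Fasn were Mvd, Cox8a, Gm26917, Erf and Spns1, at 0.15 for Mvd to 0.21 for Spns1. Mvd, an enzyme of sterol synthesis, was at 7.82 and 3.18 CPM in control, 13.5 and 10.3 with dexamethasone, and 78.6 and 82.2 with EPC-EVs. These likenesses are descriptions over 6 libraries that share 3 groups, and Gm26917 is the gene with the most counts in both EPC-EVs libraries.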
